A study of Mus musculus with 12 samples.

Results

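The nuclear genes of respiratory complexes I, II and III were described in the livers of mice without *Yap1* and of wild-type mice. Their members are the rows of the deposited expression table whose symbol begins with Nduf, with *Sdha*, *Sdhb*, *Sdhc* or *Sdhd*, or with Uqcr, and whose mean is at least 0.5 TPM (a transcript share corrected for gene length, with the same total in every library) over the 12 samples. All 63 rows with such symbols, of 25676 rows in the table, met that minimum, from a mean of 2.41 TPM for *Sdhaf3* to 545 TPM for *Ndufa4*. They comprise 7 core and 30 accessory subunits of complex I, 8 assembly factors of complex I (*Ndufaf1* to *Ndufaf8*), the 4 subunits and 4 assembly factors (*Sdhaf1* to *Sdhaf4*) of complex II, and 8 subunits of complex III. The remaining 2, *Ndufa4* and *Ndufa4l2*, were kept apart because NDUFA4, first counted with complex I, is now counted with complex IV. The complex III subunit *Cyc1* does not carry such a symbol and is given with the other genes of the pathway.

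Whole livers of 12 C57BL/6 mice of 3 to 4 months were analysed by bulk RNA sequencing, 1 library a mouse. The 4 groups were 3 male and 3 female wild-type (WT) mice, and 3 male and 3 female mice with a Foxa3-Cre YAP1 KO (KO). Foxa3-Cre is active in cells of the foregut endoderm, from which hepatocytes and bile duct cells come, so the other cells of the liver keep the gene. Whether the WT mice carried Cre or a floxed allele is not given in the sources used here.

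Complex I takes electrons from NADH, complex II takes them from succinate and is at the same time an enzyme of the tricarboxylic acid cycle, and complex III passes them from ubiquinol to cytochrome c; complexes I and III pump protons. The core subunits of complex I hold the flavin and the iron-sulfur clusters, the accessory subunits surround and stabilise them, and assembly factors help to build a complex without staying in it. Hepatocytes are rich in mitochondria and use this chain to power glucose, urea and lipid metabolism.

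*Yap1* itself was at 29.5 ± 4.46 TPM (SD, n = 6) in WT and at 2.02 ± 0.775 TPM (SD, n = 6) in KO, with no overlap between the groups. Low values came in steps that gave a rough estimate of 24806586 to 35204727 reads per library, with 62.3% to 71.0% of low values within 0.1 of a whole read. The median log2 fold change of the 12278 tested genes in KO against WT was 0.35 on TPM as deposited, so fold changes are also given on rescaled TPM, divided by a median-of-ratios factor per library (0.724 to 0.949 in WT, 1.09 to 1.34 in KO), where that median was -0.04. Changes as deposited are read against 0.35. Marker lists of 7 cell types were also compared, where 50.1% of all tested genes were called higher and 4.82% lower as deposited, and 20.9% and 18.7% after rescaling. Of these, 3 of 8 hepatocyte markers were lower and 1 higher as deposited, 4 lower and 0 higher after rescaling, and their summed level was 91476 to 131440 TPM in WT and 71478 to 98237 TPM in KO as deposited (overlapping), and 114453 to 138487 and 62014 to 84886 rescaled TPM (apart). All 8 macrophage markers were higher on both scales, summing to 80.9 to 277 TPM in WT and 519 to 1057 TPM in KO, and 7 of 8 stellate cell and fibroblast markers were higher as deposited (5 after rescaling), summing to 60.7 to 166 and 196 to 481 TPM (overlapping after rescaling, at 75.2 to 181 and 170.2 to 375). Of the 8 cholangiocyte markers, 4 were higher and 1 lower as deposited, a share of higher calls near that of all tested genes, summing to 37.8 to 68.4 TPM in WT and 273 to 742 TPM in KO, while *Krt7* and *Cftr* had mean levels of at most 0.255 TPM in each genotype. The neutrophil list summed to 0.218 to 20.2 and 12.2 to 45.8 TPM, with *Ly6g* listed at 0 in all WT libraries, the lymphocyte list to 2.04 to 8.22 and 3.09 to 8.66 TPM, and the endothelial list to 44.3 to 69.2 and 23.8 to 97.1 TPM. The part of these cell type markers in the results below was not tested.

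In 3 libraries, transcripts of genes with a coding sequence under 600 bases were low against longer ones. Over 712 short and 3022 longer genes outside the members, the difference of their median log2 deviations was -0.54 in KO male replicate 3, -0.34 in WT male replicate 2 and -0.24 in KO female replicate 2, and between 0.0053 and 0.34 in the other 9. Since 43 of the 63 members are that short, counts, medians and sums over the members are also given without these libraries, and the part of this difference was not tested.

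In WT liver the 3 complexes differed in the level of their subunits. Mean levels of the 8 complex III subunits lay within 1.79-fold of each other, from 195 TPM for *Uqcrc2* to 349 TPM for *Uqcrh*, with a median of 264 TPM. The 4 complex II subunits went from 96.1 TPM (*Sdhc*) to 295 TPM (*Sdha*), and the 7 core subunits of complex I had a median of 118 TPM, with *Ndufs1* lowest at 65.1 TPM. Accessory subunits of complex I covered the widest range, from 11.8 TPM for *Ndufb2* to 369 TPM for *Ndufb9*, a ratio of 31.2, with a median of 94.1 TPM. The 12 assembly factors were low throughout, from 2.35 TPM (*Sdhaf3*) to 29.3 TPM (*Sdhaf4*) with a median of 10.3 TPM. The members together held 0.786% of all TPM in WT and 0.731% in KO. The 8 mitochondrially encoded genes of complexes I and III alone held 6.55% and 5.93%.

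Both sexes were first pooled, with sex as a covariate, to ask which members differed in livers without *Yap1*. On TPM as deposited, 3 of 63 members fell in KO and 1 rose (limma adjusted p under 0.05), against 4.82% and 50.1% of all tested genes, so the share that fell was near that of all genes and the share that rose was far lower. The 3 that fell were *Ndufaf4*, an assembly factor of complex I, *Ndufb10*, an accessory subunit in its membrane arm, and *Sdhb*, the iron-sulfur subunit of complex II. *Ndufaf5*, an assembly factor that acts as a hydroxylase on a core subunit, was the 1 that rose. The median over members was -0.10, where the median over all tested genes was 0.35, and 61 of 63 members lay below that median. Without the 3 libraries low in short genes, the median over members was 0.00407 where that of all genes was 0.32, and 60 of 63 lay below the latter. In that fit 2 members rose and 5 fell, against 47.9% and 5.54% of all tested genes.

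After rescaling, 39 of 63 members fell and 0 rose (0 also at an unadjusted p under 0.05), against 18.7% and 20.9% of all tested genes. The median log2 fold change over members was -0.56 and 62 of 63 were below 0, all but *Ndufa4l2*. In 25 members all 6 KO values lay below all 6 WT values after rescaling, against 8.19% of tested genes. As deposited this held for 0 members, against 1.88%. Without the 3 libraries low in short genes, 43 members were lower after rescaling, 38 of them among the 39, with a median of -0.39, against 18.7% of all tested genes. Under quantile normalization, chosen after seeing the data, 26 were lower and 0 higher with a median of -0.37, against 20.8% and 19.6% of all tested genes, whose median was -0.06. In bulk tissue, fewer cells that express these genes and less of their RNA per cell cannot be told apart.

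**Figure D1:**
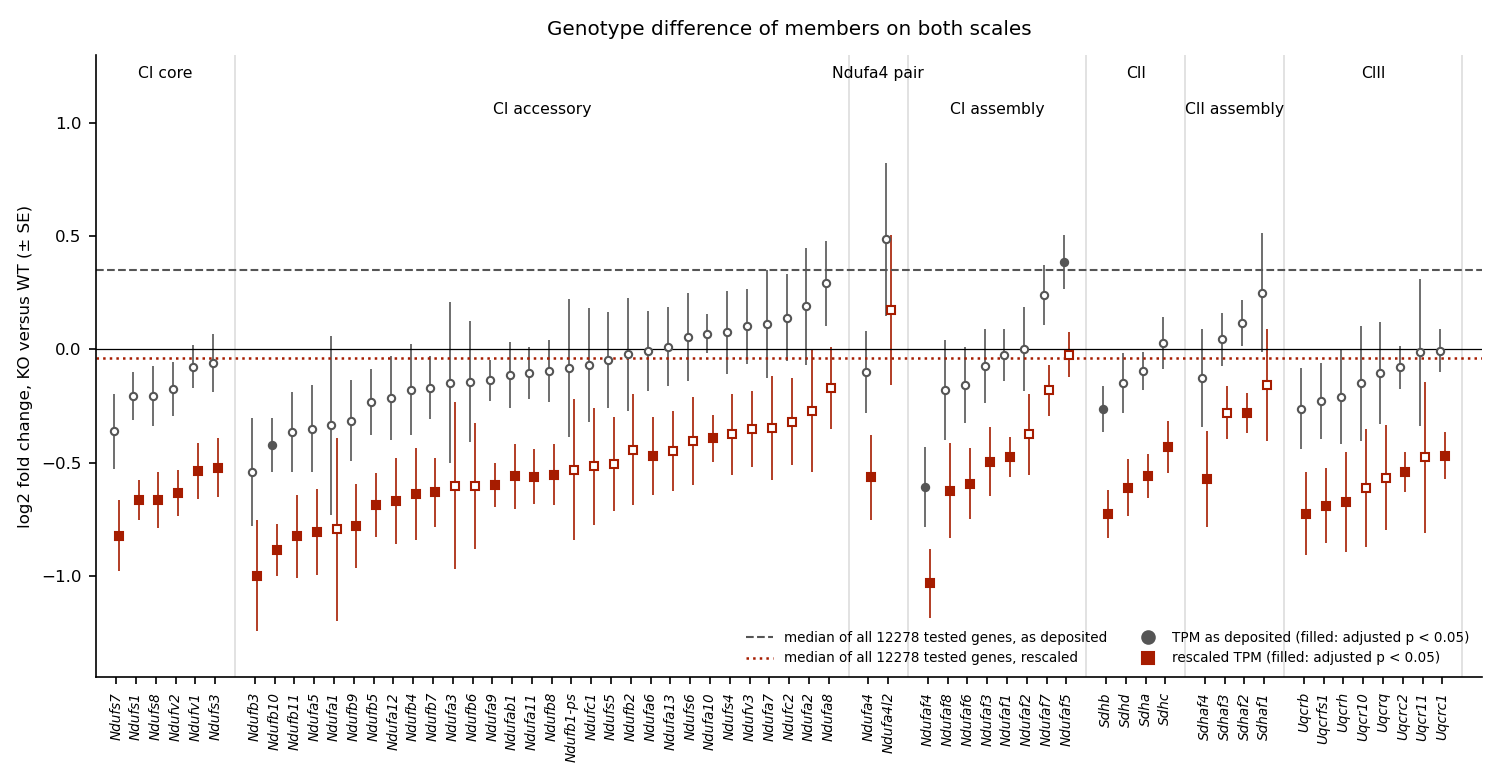
Log2 fold change of KO against WT with its SE for 62 of the 63 members, ordered within each class, on TPM as deposited (grey circles) and rescaled TPM (red squares), filled where the limma adjusted p was under 0.05; horizontal lines give the median of all 12278 tested genes on each scale. As deposited most members sit around 0 and under the 0.35 of all genes, and after rescaling all shown but *Ndufa4l2* sit below 0.

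All 7 core subunits of complex I fell after rescaling, against 18.7% of all tested genes, with the largest log2 fold change, -0.82, in *Ndufs7* and a median of -0.63. In 6 of the 7 the rescaled KO values lay below the WT values with no overlap, against 8.19% of all tested genes. On TPM as deposited 0 of 7 passed the threshold (1 had an unadjusted p under 0.05), against 50.1% higher and 4.82% lower among all tested genes. Their median was -0.17. *Ndufs1*, the largest subunit of the peripheral arm, had lowest, median and highest values of 50.9, 66.3 and 74.6 TPM in WT and 49.6, 56.7 and 64.02 TPM in KO as deposited. Rescaled, it was at 75.3 ± 5.21 in WT and 47.2 ± 4.94 in KO (SD, n = 6), with WT libraries at 70.1 to 83.1 and KO libraries at 38.7 to 51.8, so the groups were apart on that scale only. Its rescaled log2 fold change was -0.67 (0.09 SE and an adjusted p of 6.38e-05 by limma) and its deposited one -0.21 (0.11 SE and an adjusted p of 0.111 by limma).

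*Ndufs7* and *Ndufs8* carry iron-sulfur clusters near the quinone site. *Ndufs7* was at 60.5, 125 and 143 TPM (lowest, median and highest) in WT and 62.1, 91.4 and 113 TPM in KO. It had the largest rescaled fall of the core subunits, -0.82 (0.16 SE and an adjusted p of 0.0012 by limma), although WT male replicate 2 lay within the KO range. *Ndufs8* was at 88.8 ± 21.05 TPM in WT and 76.00 ± 14.1 TPM in KO (SD, n = 6), for a rescaled log2 fold change of -0.67 (0.12 SE and an adjusted p of 0.00086 by limma). The flavoprotein subunits at the NADH site were *Ndufv1*, at 131 ± 10.4 and 125 ± 14.6 TPM, and *Ndufv2*, at 76.96 ± 15.8 and 67.1 ± 7.11 TPM in WT and KO (SD, n = 6). Their rescaled log2 fold changes were -0.54 and -0.63 (limma adjusted p = 0.00401 and 0.000308). *Ndufs3*, another subunit of the peripheral arm, had log2 fold changes of -0.06 as deposited and -0.52 rescaled (limma adjusted p = 0.713 and 0.00674).

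Of the 30 accessory subunits of complex I, 1 fell as deposited (a share near the 4.82% of all tested genes) and 15 after rescaling (against 18.7%), and 0 rose on either scale (against 50.1% and 20.9%). Their rescaled log2 fold changes ran from -1.0003 (*Ndufb3*) to -0.17 (*Ndufa8*) with a median of -0.56. *Ndufb10* (ENSMUSG00000040048, GRCm38 chromosome 17, minus strand, from 24722060 to 24724478) was at 184, 148 and 224 TPM in WT males, 279, 279 and 229 in WT females, 142, 167 and 128 in KO males and 207, 168 and 176 in KO females (replicates 1, 2 and 3). WT females were the highest group and KO males the lowest, and WT male replicates 1 and 2 lay among the KO libraries. The log2 fold change was -0.42 (0.12 SE and an adjusted p of 0.00978 by limma) as deposited and -0.89 (0.11 SE and an adjusted p of 5.15e-05 by limma) rescaled. It kept an adjusted p of at most 0.0257 with any 1 library left out. With rescaling its level in KO was 54.2% of that in WT, and the groups did not overlap.

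Several other accessory subunits of the membrane arm passed the threshold after rescaling only. *Ndufb3* was at 54.4, 101 and 107 TPM (lowest, median and highest) in WT and 32.5, 62.3 and 90.2 TPM in KO. Its log2 fold change was -0.54 (0.24 SE and an adjusted p of 0.0698 by limma) as deposited and -1.0003 (0.24 SE and an adjusted p of 0.00563 by limma) rescaled. *Ndufb11*, an X-linked subunit, was at 125, 187 and 216 TPM in WT and 89.3, 146 and 203 TPM in KO, with log2 fold changes of -0.36 and -0.83 (limma adjusted p = 0.0976 and 0.00292). Both had rescaled KO values all below WT. At the other end, *Ndufa8* was at 131 ± 31.97 TPM in WT and 159 ± 35.9 TPM in KO (SD, n = 6), with log2 fold changes of 0.29 as deposited and -0.17 rescaled (limma adjusted p = 0.203 and 0.487). The 15 accessory subunits that did not pass after rescaling included 14 with a coding sequence under 600 bases or none annotated, among them *Ndufa1*, *Ndufa2* and *Ndufa3*, whose spread within groups was wide.

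**Figure D2:**
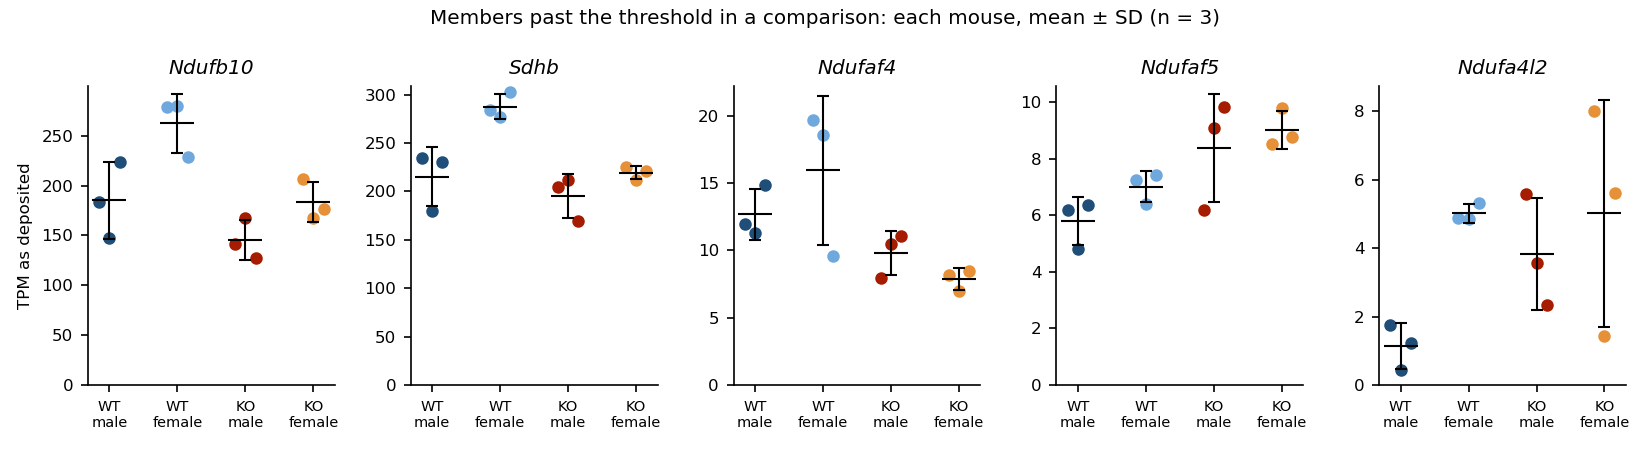
TPM as deposited in each mouse for the 5 members that passed the threshold in a genotype or sex comparison, by group, with the mean and SD (n = 3). *Ndufb10* and *Ndufaf4* have both KO means below both WT means with overlapping libraries, *Sdhb* is lowest in KO males and highest in WT females, *Ndufaf5* is higher in KO in all but KO male replicate 1, and *Ndufa4l2* is lowest in WT males.

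Of the 8 assembly factors of complex I, 1 fell and 1 rose as deposited, against 4.82% and 50.1% of all tested genes, and 5 fell and 0 rose after rescaling, against 18.7% and 20.9%. *Ndufaf4* (ENSMUSG00000028261, GRCm38 chromosome 4, plus strand, from 24898083 to 24905001), a factor of early assembly steps that works together with *Ndufaf3*, was at 11.97, 11.3 and 14.8 TPM in WT males, 19.7, 18.6 and 9.56 in WT females, 7.96, 10.5 and 11.1 in KO males and 8.19, 6.97 and 8.46 in KO females. KO females were uniformly low, and of the WT females replicate 3 was lower than the others. The log2 fold change was -0.61 (0.18 SE and an adjusted p of 0.0106 by limma) as deposited and -1.03 (0.15 SE and an adjusted p of 0.000153 by limma) rescaled, the largest fall of the 63 members on both scales, and with rescaling the level in KO was 45.0% of that in WT with no overlap. Leaving out any 1 library gave deposited log2 fold changes of -0.72 to -0.50 with an adjusted p of at most 0.0275.

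*Ndufaf5* (ENSMUSG00000027384, GRCm38 chromosome 2, plus strand, from 140170649 to 140203689) was at 6.18, 4.82 and 6.37 TPM in WT males, 7.24, 6.39 and 7.43 in WT females, 6.20, 9.09 and 9.84 in KO males and 8.51, 9.78 and 8.75 in KO females. All KO libraries but KO male replicate 1 were above all WT libraries. The log2 fold change was 0.39 (0.12 SE and an adjusted p of 0.0157 by limma) as deposited, close to the 0.35 of all tested genes, and -0.02 (0.10 SE and an adjusted p of 0.88 by limma) rescaled. Without the 3 libraries low in short genes, it was 0.25 as deposited (limma adjusted p = 0.0903). *Ndufaf7*, a mitochondrial methyltransferase, was at 8.91 ± 1.46 TPM in WT and 10.7 ± 1.54 TPM in KO (SD, n = 6), with log2 fold changes of 0.24 and -0.18 (limma adjusted p = 0.139 and 0.214). The rescaled falls of the others called were -0.62 for *Ndufaf8*, -0.59 for *Ndufaf6*, -0.50 for *Ndufaf3* and -0.47 for *Ndufaf1* (limma adjusted p = 0.0311, 0.00882, 0.021 and 0.000955). *Ndufaf2* had -0.38 rescaled (limma adjusted p = 0.117), and 65.7% of its exon bases overlap a gene on the opposite strand, so its reads are uncertain.

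Promoters of the 2 assembly factors called as deposited and of the member with the highest WT level are shown because members of this pathway are textbook targets of the nuclear respiratory factor NRF1. The windows run 5′ to 3′ from 250 bases before to 50 after the transcript start (RefSeq, GRCm38.p6), at chr2:140170396-140170695 on the plus strand for *Ndufaf5*, chr4:24897833-24898132 on the plus strand for *Ndufaf4* and chr6:11907401-11907700 on the minus strand for *Ndufa4*. Capitals mark a match to the NRF1 motif GCGCANGCGC.
Ndufaf5: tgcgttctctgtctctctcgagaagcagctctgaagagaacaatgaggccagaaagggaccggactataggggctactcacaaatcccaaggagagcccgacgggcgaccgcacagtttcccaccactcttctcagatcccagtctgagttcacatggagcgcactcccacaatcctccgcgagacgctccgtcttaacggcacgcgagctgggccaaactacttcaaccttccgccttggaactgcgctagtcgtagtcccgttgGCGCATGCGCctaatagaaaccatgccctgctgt
Ndufaf4: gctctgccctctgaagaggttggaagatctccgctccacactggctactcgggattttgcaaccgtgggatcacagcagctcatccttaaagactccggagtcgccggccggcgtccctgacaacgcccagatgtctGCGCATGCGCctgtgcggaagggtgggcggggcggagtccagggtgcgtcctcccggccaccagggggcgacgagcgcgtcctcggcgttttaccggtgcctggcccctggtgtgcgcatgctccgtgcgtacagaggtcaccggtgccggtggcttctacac
Ndufa4: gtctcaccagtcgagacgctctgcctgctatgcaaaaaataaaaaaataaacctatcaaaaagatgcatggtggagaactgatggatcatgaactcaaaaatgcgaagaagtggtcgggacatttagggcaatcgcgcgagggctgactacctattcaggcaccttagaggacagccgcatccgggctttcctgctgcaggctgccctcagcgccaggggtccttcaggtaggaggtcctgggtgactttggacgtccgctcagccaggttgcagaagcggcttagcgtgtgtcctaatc
*Ndufaf5* and *Ndufaf4* both hold the motif, 16 bases after and 113 bases before the start, and none of the 4 motifs searched is in these letters of *Ndufa4*.

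Over all members, 52 of 63 matched a window. The NRF1 motif, which can match both strands at 1 place, was in 14 of 52 members (26.9%) and in 11.4% of 9726 tested genes with a window. The YY1 motif AAGATGGC was in 8 (15.4%) against 5.21%, the ETS motif CCGGAAGT in 3 (5.77%) against 8.98%, and the TEAD motif GGAATG in 5 (9.62%) against 14.5%, each searched on both strands. The 14 members with the NRF1 motif had a median rescaled log2 fold change of -0.53 with 9 called lower, and the 38 without it -0.56 with 23 called lower. Of all tested genes, 18.7% were called lower on that scale. A match is a description of the sequence and not of a bound site.

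All 4 subunits of complex II fell after rescaling, against 18.7% of all tested genes. In all 4 the rescaled KO values lay below the WT values with no overlap, against 8.19%. As deposited 1 of the 4 fell, against 4.82%. Under quantile normalization 1 of the 4 was called lower, a share near the 20.8% of all tested genes, and the median was -0.24. *Sdhb* (ENSMUSG00000009863, GRCm38 chromosome 4, plus strand, from 140961203 to 140979193) was at 235, 180.3 and 231 TPM in WT males, 284, 277 and 302 in WT females, 204, 212 and 169 in KO males and 226, 212 and 221 in KO females. WT females were above all other groups, and the male groups overlapped through WT male replicate 2. The log2 fold change was -0.26 (0.10 SE and an adjusted p of 0.0426 by limma) as deposited and -0.73 (0.11 SE and an adjusted p of 0.000153 by limma) rescaled. The deposited call was lost, with adjusted p from 0.0707 to 0.0896, when any 1 of KO female replicates 1, 2 and 3, KO male replicate 3, WT female replicates 1, 2 and 3, or WT male replicates 1 and 3 was left out, and the log2 fold change without 1 library was -0.33 to -0.23. It was also lost, at the same fold change, with a covariate for the 2 lowest animal numbers, without sex as a covariate and without the variance trend (limma adjusted p = 0.0517, 0.104 and 0.0523).

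*Sdha*, the flavoprotein that oxidises succinate, was at 254, 299 and 318 TPM (lowest, median and highest) in WT and 256, 273 and 307 TPM in KO as deposited, and at 273 to 414 and 199.9 to 254 rescaled TPM. Its rescaled log2 fold change was -0.56 (0.10 SE and an adjusted p of 0.000607 by limma). *Sdhc* and *Sdhd* anchor the complex in the membrane. *Sdhd* was at 227 ± 42.3 TPM in WT and 204 ± 29.7 TPM in KO (SD, n = 6), for a rescaled log2 fold change of -0.61 (0.13 SE and an adjusted p of 0.00202 by limma). *Sdhc* was at 96.1 ± 16.5 TPM in WT and 97.6 ± 14.1 TPM in KO, with the smallest rescaled fall of the 4, -0.43 (0.11 SE and an adjusted p of 0.00877 by limma).

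The 4 assembly factors of complex II were low, at 2.35 to 29.3 TPM in WT. None passed as deposited by limma (0 also at an unadjusted p under 0.05), against 50.1% higher and 4.82% lower among all tested genes. After rescaling *Sdhaf2*, which attaches the flavin to SDHA, fell by 0.28 and *Sdhaf4* by 0.57 on the log2 scale (limma adjusted p = 0.0217 and 0.0458). *Sdhaf3* had -0.28 (limma adjusted p = 0.0773). *Sdhaf1*, a factor for iron-sulfur insertion, was at 3.37, 8.35 and 14.1 TPM (lowest, median and highest) in WT and 5.46, 11.02 and 14.2 TPM in KO. Its log2 fold change was 0.25 as deposited and -0.16 rescaled (limma adjusted p = 0.437 and 0.643), with overlapping groups, and 69.6% of its exon bases overlap a gene on the opposite strand.

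Of the 8 complex III subunits, 0 passed as deposited (0 also at an unadjusted p under 0.05, limma), against 50.1% higher and 4.82% lower among all tested genes. After rescaling 5 fell, against 18.7% of all tested genes, with KO values all below WT in 3, against 8.19%. Under quantile normalization 2 of the 8 were called lower, a share near the 20.8% of all tested genes, and the median was -0.27. The deposited log2 fold changes of all 8 were below 0, from -0.26 to -0.01. The large core proteins were the steadiest. *Uqcrc1* was at 206, 243 and 280.5 TPM (lowest, median and highest) in WT and 216, 242 and 279.9 TPM in KO, and *Uqcrc2* at 153, 201 and 218 TPM and 178, 179.9 and 195 TPM. Their deposited values overlapped, and their rescaled log2 fold changes were -0.47 and -0.54 (limma adjusted p = 0.00286 and 0.000377). *Uqcrfs1*, the Rieske iron-sulfur protein, was at 259 ± 47.6 TPM in WT and 222 ± 49.5 TPM in KO (SD, n = 6), for a rescaled log2 fold change of -0.69 (0.17 SE and an adjusted p of 0.00497 by limma).

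The small subunits of complex III varied more than the core proteins. *Uqcrb*, at 329 ± 87.8 and 273 ± 70.01 TPM in WT and KO (SD, n = 6), and *Uqcrh*, at 349 ± 74.4 and 313 ± 108 TPM, fell after rescaling, by 0.73 and 0.67 on the log2 scale (limma adjusted p = 0.0067 and 0.0275). *Uqcrq*, *Uqcr10* and *Uqcr11* had rescaled log2 fold changes of -0.57, -0.61 and -0.48 and did not pass (limma adjusted p = 0.0697, 0.0794 and 0.279). *Uqcr11* was at 323, 153 and 315 TPM in WT males, 324, 433 and 257 in WT females, 302, 403 and 115 in KO males and 538, 183 and 384 in KO females. In each male group and in KO females, 1 library was far below the others, and these were the 3 libraries low in short genes. Without them the deposited log2 fold changes of *Uqcrq*, *Uqcr10* and *Uqcr11* were 0.10, 0.06 and 0.31 in place of -0.10, -0.15 and -0.01, and none passed as deposited on either set of libraries. After rescaling without these libraries, 7 of the 8 complex III subunits were called lower, against 5 with all libraries and 18.7% of all tested genes.

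Summed over subunits, the 3 complexes had rescaled log2 ratios of KO to WT between -0.60 and -0.54. The 37 complex I subunits together were at 4094 ± 828 TPM in WT and 3820.2 ± 883 TPM in KO (SD, n = 6) as deposited. Rescaled they were at 4696 ± 593 and 3228 ± 754, a log2 ratio of -0.54. For the 4 complex II subunits, the sums were 870.3 ± 97.01 and 785 ± 44.4 TPM as deposited and 1006 ± 42.7 and 662 ± 66.7 rescaled, a log2 ratio of -0.60. The rescaled sums of complex II did not overlap, at 954 to 1061 in WT and 532 to 719 in KO. For complex III they were 2166 ± 451 and 2017 ± 529 TPM as deposited and 2484 ± 330.4 and 1704 ± 445 rescaled, a log2 ratio of -0.54. The 12 assembly factors summed to 191 ± 20.5 and 134 ± 23.4 rescaled TPM, a log2 ratio of -0.51. In complexes I and III and the assembly factors, the rescaled sums overlapped only through WT male replicate 2, which is low in short genes. Without it, complex I was at 4595 to 5314 in WT and 1861 to 3951 in KO, complex III at 2348 to 2848 and 919.9 to 2168, and the assembly factors at 187 to 209 and 102 to 157. Without the 3 libraries low in short genes, the rescaled log2 ratios were -0.43, -0.56 and -0.41 for complexes I, II and III and -0.43 for the assembly factors. Nuclear complex I subunits over the 7 mt-Nd genes gave a ratio of summed TPM of 0.0845 ± 0.0265 in WT and 0.0846 ± 0.0318 in KO (SD, n = 6), which differ by far less than the spread. The lowest ratios were those of the 3 libraries low in short genes, at 0.0384 in WT male replicate 2, 0.0496 in KO male replicate 3 and 0.0507 in KO female replicate 2. Without these libraries the ratios were 0.0735 to 0.111 in WT and 0.0727 to 0.127 in KO, which overlap.

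**Figure D3:**
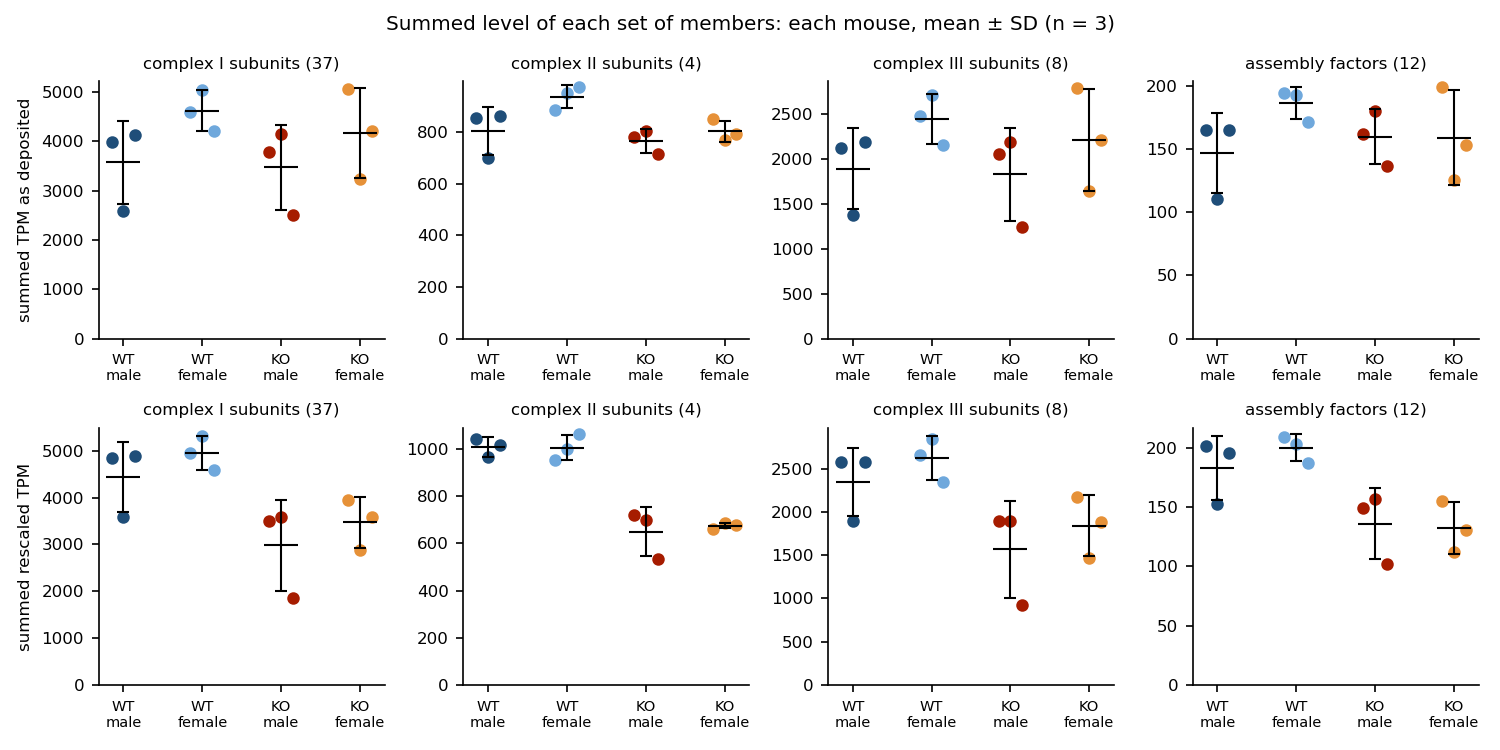
Summed TPM of the subunits of complexes I, II and III and of the assembly factors in each mouse, as deposited (top) and rescaled (bottom), with group mean and SD (n = 3) and the number of genes in brackets. As deposited the genotypes overlap in every set, through WT male replicate 2 alone in complex II, and after rescaling the KO groups are lower and only that library overlaps them, in all sets but complex II.

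Within males, 1 member rose in KO as deposited (*Ndufa4l2*) and 0 fell, against 43.3% and 2.81% of all tested genes, with 2 members at an unadjusted p under 0.05. Within females 3 fell (*Ndufaf4*, *Ndufb10* and *Sdhb*) and 0 rose, against 4.68% and 29.1%, with 7 at an unadjusted p under 0.05. After rescaling, 21 members were lower in KO males and 18 in KO females, against 10.2% and 10.9% of all tested genes, and 14 were lower in both sexes. For that overlap no share over all tested genes is given, so it is a description. These 14 included 4 core subunits of complex I (*Ndufs1*, *Ndufs7*, *Ndufs8* and *Ndufv2*), 3 of complex II (*Sdha*, *Sdhb* and *Sdhd*) and both core proteins of complex III. Leaving out KO male replicate 3, WT male replicate 1 or WT male replicate 3 gave 8 or 9 rescaled calls in males, where 7.49% to 9.53% of all tested genes were lower. In females, the number was 12 without KO female replicate 2 or WT female replicate 1, 11 without KO female replicate 3 or WT female replicate 2, 10 without WT female replicate 3, and 33 without KO male replicate 3. The share of all tested genes lower was 7.23% to 8.72% in the fits with 10 to 12 calls and 12% in that with 33. Without the 3 libraries low in short genes, 25 were lower in males and 32 in females, against 8.37% and 12.2% of all tested genes.

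The genotype effect was not shown to differ between the sexes in any member. The interaction of genotype and sex had 0 calls among the 63 on both scales, against 0.912% of tested genes as deposited, with 1 member (*Ndufa4l2*) at an unadjusted p under 0.05 on each scale. The smallest limma adjusted p was 0.519 as deposited. In females *Ndufaf4* had a log2 fold change of -0.88 (0.24 SE and an adjusted p of 0.0122 by limma) and in males -0.34 (0.24 SE and an adjusted p of 0.243 by limma) as deposited. The female call of *Ndufaf4* was lost without WT female replicate 1 or 2 (-0.70 and -0.74, limma adjusted p = 0.0598 and 0.0596). For *Ndufb10* the female and male values were -0.51 and -0.33 (limma adjusted p = 0.0355 and 0.128), with -0.49 to -0.45 and no call in females without KO female replicate 2 or 3 or WT female replicate 1 or 2. *Sdhb* had -0.39 and -0.14 (limma adjusted p = 0.0462 and 0.427), and leaving out any 1 female library, KO male replicate 1 or 2 or WT male replicate 1 ended its female call, with log2 fold changes of -0.42 to -0.35. The covariate for the 2 lowest animal numbers and the fit without the variance trend ended it as well (limma adjusted p = 0.0565 and 0.0614).

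Between the sexes, 1 member was higher in WT females than in WT males, against 4.6% of tested genes, and 0 members differed in KO (0 also at an unadjusted p under 0.05), against 0.0814%. As deposited 62 of 63 members had a male minus female log2 difference below 0 in WT, with a median of -0.36 where that of all tested genes was -0.19. Without WT male replicate 2 these medians were -0.15 and -0.13, and 52 members were below 0. After rescaling the median was -0.14 (0.00123 without that library) and 0 members passed (2 at an unadjusted p under 0.05). The member was *Ndufa4l2* (ENSMUSG00000040280, GRCm38 chromosome 10, plus strand, from 127514967 to 127517154), a low-level relative of *Ndufa4* known as a hypoxia-induced gene. It was at 1.76, 0.436 and 1.23 TPM in WT males, 4.88, 4.85 and 5.32 in WT females, 5.58, 3.55 and 2.33 in KO males and 8.01, 1.44 and 5.62 in KO females. The 3 WT males were below all WT females and all KO males, while KO females spanned almost the whole range. The male minus female log2 difference in WT was -1.54 (0.41 SE and an adjusted p of 0.0466 by limma) as deposited and -1.47 (0.40 SE and an adjusted p of 0.061 by limma) rescaled.

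In males *Ndufa4l2* had a KO against WT log2 fold change of 1.17 (0.41 SE and an adjusted p of 0.0344 by limma) as deposited and 0.83 (0.40 SE and an adjusted p of 0.161 by limma) rescaled, and over both sexes of 0.49 (0.34 SE and an adjusted p of 0.236 by limma) as deposited. The latter was 0.81 with a limma adjusted p of 0.00970 without KO female replicate 2, 0.72 with 0.0113 without the 3 libraries low in short genes, and -0.0127 with 0.979 under quantile normalization. The male call was lost without KO male replicate 1 or 2 or WT male replicate 2 or 3 (0.90 to 1.22, limma adjusted p 0.0524 to 0.128), with no filter on low values (1.17 with 0.0679) and under quantile normalization (0.56 with 0.362). The sex call in WT was lost without any 1 WT female, WT male replicate 1 or 2, any 1 KO male or KO female replicate 3 (-1.75 to -1.28, limma adjusted p 0.0528 to 0.191), and with no filter, the animal number or short-gene covariate or quantile normalization (-1.54 to -1.06, limma adjusted p 0.0531 to 0.113). An estimated 6 to 101 reads lay behind its values, the lowest number of any member. *Ndufa4*, the member with the highest level, was at 357, 586 and 644 TPM (lowest, median and highest) in WT and 324, 569.8 and 712 TPM in KO. Its log2 fold change was -0.10 as deposited and -0.57 rescaled (limma adjusted p = 0.654 and 0.0301).

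How much a member varied between mice of the same group went with the length of its coding sequence. Over the 62 members with an annotated coding sequence, Spearman's rho between that length and the within-group SD of log2(TPM + 1) was -0.84, a description over members that share the same 12 libraries. The 43 members under 600 bases had a median within-group SD of 0.39 and the 19 longer ones 0.16. *Ndufa1*, of 210 bases, varied most, with an SD of 0.87, and *Uqcrc2*, of 1359 bases, least, with 0.10. Without the 3 libraries low in short genes this rho was -0.66, with median SDs of 0.18 and 0.0771. Between length and the fold change itself, rho was 0.05 on both scales with all libraries, and -0.38 as deposited and -0.36 rescaled without the 3. The median rescaled log2 fold change was -0.56 for short and -0.54 for longer members with all libraries, and -0.35 and -0.53 without the 3. After rescaling 23 of 43 short and 16 of 19 longer members were called lower (27 and 16 without the 3 libraries), against 18.7% of all tested genes with and without these libraries. The longer members together were at 2563 to 2887 rescaled TPM in WT and 1488 to 2055 in KO with no overlap, and the short ones at 4494 to 7160.1 and 2159 to 5614, which overlapped through WT male replicate 2 alone (6013 to 7160.1 in WT without it).

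**Figure D4:**
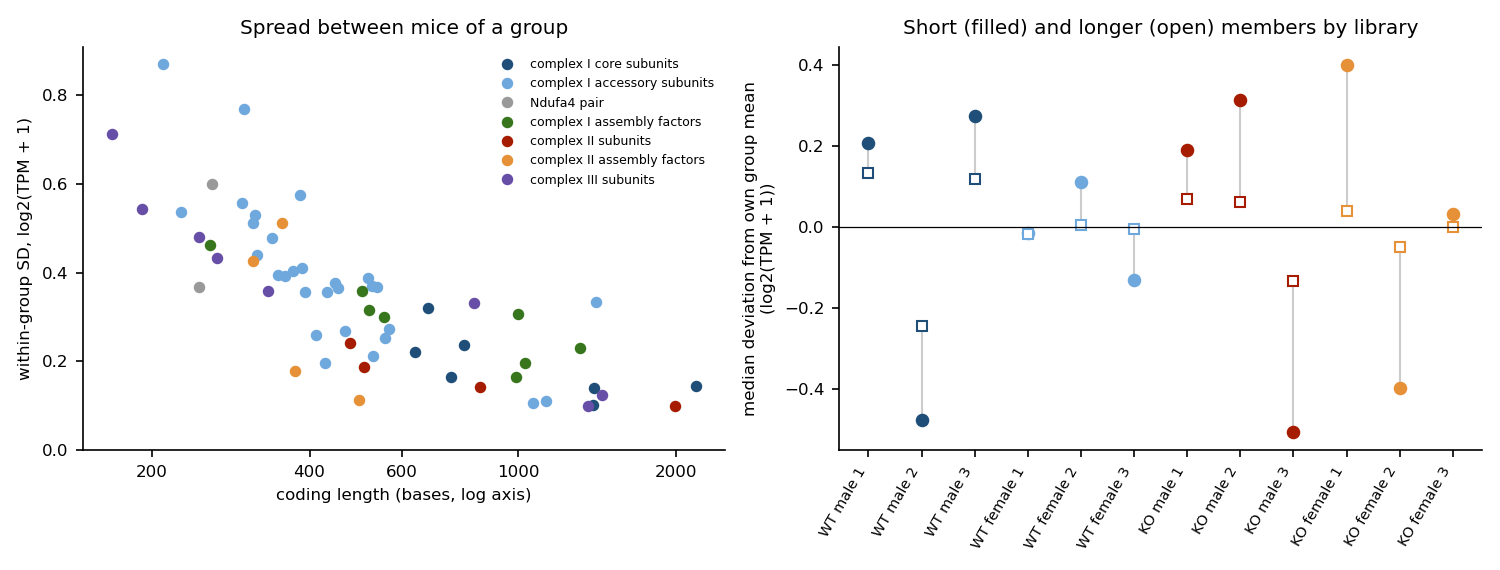
Left, within-group SD of log2(TPM + 1) of each member against its coding length (log axis), coloured by class. Right, median deviation of the 43 short (filled) and 19 longer (open) members from their own group mean in each library: WT male 2, KO male 3 and KO female 2 are low, at -0.48, -0.50 and -0.40 for short members and -0.24, -0.13 and -0.05 for longer ones.

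Other genes of the pathway were compared by the same fit, in which 50.1% of all tested genes were higher and 4.82% lower as deposited, and 18.7% were lower after rescaling. Of 12 further assembly factors of complex I tested, 2 fell and 1 rose as deposited, and 8 fell after rescaling. *Lyrm2* rose and *Dmac2* fell, with deposited log2 fold changes of 0.60 (0.18 SE and an adjusted p of 0.0107 by limma) and -0.55 (0.21 SE and an adjusted p of 0.0413 by limma). Among 7 further complex III genes, 0 passed as deposited (limma; 0 also at an unadjusted p under 0.05) and 2 fell after rescaling, *Cyc1*, the cytochrome c1 subunit, by 0.52 and the assembly factor *Uqcc1* by 0.70 on the log2 scale. The 8 mitochondrially encoded subunits of complexes I and III had a median of -0.13 as deposited, with 0 calls (limma; 2 at an unadjusted p under 0.05), and of -0.59 after rescaling, with 5 lower. Under quantile normalization their median was 0.07 with 0 calls, so their direction depended on the scaling. Nuclear subunits of complexes IV and V had medians of -0.05 and -0.08 as deposited and -0.51 and -0.54 rescaled, with 4 of 12 and 9 of 14 lower. Under quantile normalization these medians were -0.18 and -0.20, with 0 of 12 (limma) and 1 of 14 called, the latter higher. As deposited and rescaled the medians were close to those of the members.

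Of 13 genes of the tricarboxylic acid cycle other than complex II, 5 rose and 0 fell as deposited, with a median of 0.15 and a share of rises under the 50.1% of all tested genes, and 6 fell and 0 rose after rescaling, with a median of -0.31. Under quantile normalization 2 of them were higher and 4 lower, against 19.6% and 20.8% of all tested genes. *Mdh2*, malate dehydrogenase, was at 199.8 ± 24.98 TPM in WT and 302 ± 27.1 TPM in KO (SD, n = 6), for a deposited log2 fold change of 0.60 (0.10 SE and an adjusted p of 0.000177 by limma) and 0.13 rescaled. *Suclg2*, a subunit of succinate-CoA ligase, had 0.49 (0.12 SE and an adjusted p of 0.00313 by limma) as deposited and 0.02 rescaled. Of 10 genes of coenzyme Q synthesis, 6 rose as deposited, a share near 50.1%, among them *Coq8a* (0.88) and *Coq7* (0.64), with a median of 0.35 equal to that of all genes, and 2 fell after rescaling, a share near 18.7%. Of 12 iron-sulfur cluster genes, 2 rose as deposited, again a share under 50.1%, *Hscb* (0.85) and *Iba57* (0.36), and 6 fell after rescaling, against 18.7%.

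Of 13 regulators of mitochondrial biogenesis, 3 rose and 2 fell as deposited and 5 fell after rescaling, where the shares of all tested genes were 50.1%, 4.82% and 18.7%. *Esrrg*, an orphan nuclear receptor that drives oxidative genes, had the largest change, from 1.53 ± 0.649 TPM in WT (SD, n = 6) to at most 0.0919 TPM in any KO library, a deposited log2 fold change of -1.26 (0.14 SE and an adjusted p of 5.73e-06 by limma) and -1.39 rescaled. *Pprc1*, a co-activator of nuclear respiratory factors, had 0.45 (0.16 SE and an adjusted p of 0.0342 by limma) as deposited and 0.07 rescaled. These lists are named for the pathway and their counts are a description.

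**Figure D5:**
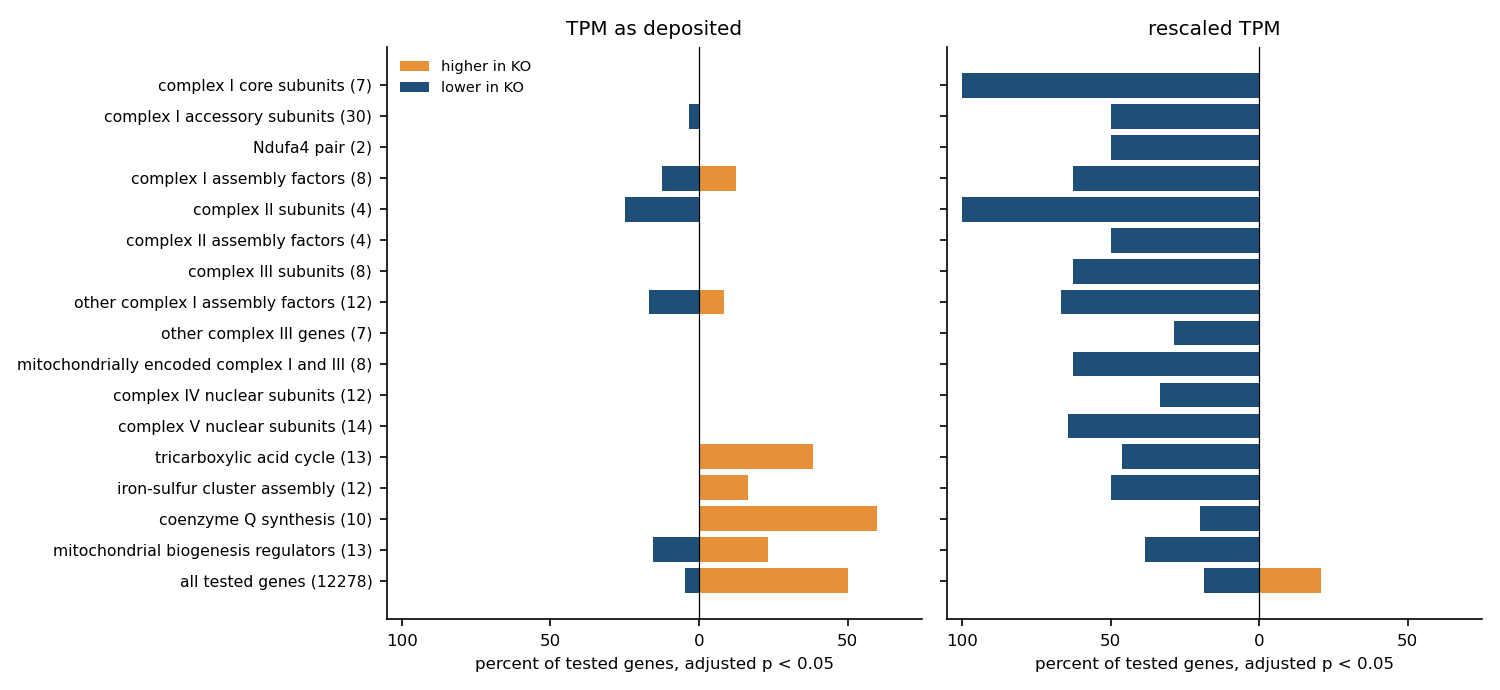
Percent of the tested genes of each list with a limma adjusted p under 0.05, higher (orange) and lower (blue) in KO, on TPM as deposited (left) and rescaled TPM (right), with the number tested in brackets. As deposited 50.1% of all tested genes (bottom bar) are called higher, near the share of the coenzyme Q list and above those of the others, and after rescaling every list has calls on the lower side only.

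In the authors' deposited table, 59 of 63 members have a log2 fold change below 0 and 16 are lower with an FDR p-value printed below 0.05, none higher, against 9.27% and 14.9% of the 17332 genes with a value. The median over members in the authors' deposited table is -0.39 and over the tested genes -0.01. In the authors' deposited table *Ndufaf4* has -1.11, *Ndufs1* -0.73, *Sdha* -0.69, *Ndufb10* -0.69 and *Sdhb* -0.64. The 16 take in 5 of 7 core subunits of complex I, 5 of 30 accessory subunits, 3 of its 8 assembly factors, 2 of 4 complex II subunits and 1 of 8 complex III subunits.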

How the data were processed

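RNA of 12 frozen mouse livers was extracted with Trizol and RNeasy columns with DNase, and sequenced as 1 library a mouse, per the labels' protocols. Expression values are deposited as TPM per gene, and each column sums to 1000000. The submitters' processing notes name GRCm38 and edgeR without their roles; the aligner, the counting and its strand setting are not given in the sources used here. The authors' log2 fold changes and FDR p-values, the latter deposited with 2 decimals, were copied and not recomputed. The authors' other deposited columns of this comparison (fold changes and scores) were not used.

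TPM + 1 was log2-transformed, genes with a mean of at least 0.5 TPM were kept, and limma 3.58.1 (eBayes with trend, R 4.3.3) was fitted on 12278 genes, with sex as a covariate for genotype and 1 model of the 4 group means for the other contrasts. P-values are two-sided and Benjamini-Hochberg adjusted over all tested genes, with a threshold of 0.05. Fold changes of low genes are understated on this scale. They were refitted on TPM divided by median-of-ratios factors over 12819 genes above 0 in every sample. The genotype fit was also run on simulated data with independent noise for each gene. Those data held neither the deviation of short genes in some libraries nor the shift of all tested genes, so that run cannot test their part. Python 3.11.15, numpy 2.4.6, pandas 2.3.3 and matplotlib 3.10.9 were used for the rest. The labels do not state more than that each library is another mouse, so p-values measure the spread between these mice. Depth is known only as a rough estimate of 24806586 to 35204727 reads per library, so no counting interval is given.

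Members are all rows that the name rule found. Members and lists were chosen with earlier results of these data known. Named by rule were the core subunits of complex I, the subunits of complexes II and III, the 5 highest and 5 lowest members as deposited and the 3 and 3 after rescaling, members and assembly factors past the threshold, and from each other list the 2 largest called changes. 1 member is counted but its own values are not reported here. Further genes were named after their values were seen. Coding lengths and overlaps come from GENCODE for GRCm38, where all 63 symbols matched; 25 members share exon bases with another annotated gene, 23 of them on the opposite strand, and reads of such genes cannot be assigned without the strand setting. Alternatives were other scalings, filters, pseudocounts and covariates, and leaving out libraries.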

Additional observations from a re-analysis of the deposited data

Results flagged for a closer look

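Dixon's gap test was applied to the 6 mice of each genotype for the named members and summed levels, 62 tests in all, and 4 groups held a sample far from the others; chance alone would mark about 1 group in 20. *Ndufv1* in KO had its lowest value in KO male replicate 3, at 96.7 TPM, where the other 5 libraries were at 126 to 140 TPM. *Ndufaf5* in KO had its lowest value in KO male replicate 1, at 6.20 TPM, where the others were at 8.51 to 9.84 TPM. *Uqcrfs1* in WT had its lowest value in WT male replicate 2, at 166 TPM, where the others were at 257 to 296 TPM. The summed level of the 12 assembly factors in WT was also lowest in WT male replicate 2, at 110.4 TPM, where the others were at 165 to 194 TPM. KO male replicate 3 and WT male replicate 2 are among the 3 libraries low in short genes, and the part of that in these values was not tested.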

How the results depend on the processing

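Of the 63 members, 4 passed in KO against WT as deposited (1 higher and 3 lower, against 50.1% and 4.82% of all tested genes). The number was 39 after rescaling, all lower, against 18.7%. Without the 20 most abundant genes it was 8 (1 higher and 7 lower, against 43.3% and 5.66%). Among alternatives chosen after seeing the data it was 26 under quantile normalization, all lower, against 20.8%. It was 13 with a covariate for the short-gene index (5 higher and 8 lower, against 54.9% and 5.18% of all tested genes). It was 7 without the 3 libraries low in short genes (2 higher and 5 lower, against 47.9% and 5.54%). With 1 library left out it was 3 to 9, with 9 without WT male replicate 2, where 51.1% to 56% of all tested genes were called in either direction. The median over members was -0.10 as deposited, -0.56 after rescaling, -0.18 to -0.00535 with 1 library left out, 0.00407 without the 3 libraries and -0.000107 with the short-gene covariate. In males the number was 1 (46.1% of all tested genes called), 0 with no filter on low values (32.3%), and 2 without the variance trend or with a pseudocount of 0.1 (46% and 46.8%). It was 6 under quantile normalization or with the short-gene covariate (21.7% and 54.2% of all tested genes), 21 after rescaling (24.1%), and 0 to 1 with 1 library left out (36.2% to 46.1%). In females it was 3 (33.8% of all tested genes called), 5 without the mt- genes or the 20 most abundant genes (32.7% and 30.4%) and 6 without the 3 libraries (38.3%). It was 9 with the short-gene covariate (39.1% of all tested genes), 11 under quantile normalization (26.8%), 18 after rescaling (26.1%), and 0 to 6 with 1 library left out (25.1% to 37.2%). Between the sexes in WT it was 1 (5.74% of all tested genes called), 3 without the mt- genes (7.48%), and 0 to 3 with 1 library left out (2.37% to 13.8%). It was 0 with a covariate for the 2 lowest animal numbers, no filter, rescaling, quantile normalization or the short-gene covariate (3.08% to 4.55%). A minimum of 5 TPM also gave 0 (7.55%), but *Ndufa4l2*, the 1 member called, lies under that minimum and was not tested there. The interaction and the difference between the sexes in KO had 0 calls under each alternative run. The 39 rescaled falls were 33 to 43 with 1 library left out, where 15.8% to 19.8% of all tested genes were lower. The 21 rescaled falls in males were 47 with the short-gene covariate (15.4% of all tested genes lower) and 6 under quantile normalization (9.28%). With 1 library left out they were 8 to 24 (8 and 9 were the lowest), against 7.19% to 10.1%. The 18 in females were 36 with that covariate (14.6%), 32 without the 3 libraries (12.2%), 11 under quantile normalization (12.8%) and 10 to 33 with 1 library left out (7.23% to 12.1%). The cause was not tested.

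Some log2 fold changes changed sign. Quantile normalization gave -0.21 for *Sdhc*, *Ndufaf7* and *Sdhaf1*, -0.0839 for *Ndufaf5* and -0.0127 for *Ndufa4l2*. Rescaling, which moves the median of all tested genes from 0.35 to -0.04 and so turns the sign of members between 0 and about that shift by construction, gave -0.43 for *Sdhc*, -0.18 for *Ndufaf7*, -0.16 for *Sdhaf1*, -0.17 for *Ndufa8* and -0.0226 for *Ndufaf5*, and *Sdhc* was at -0.0471 without the 20 most abundant genes. The short-gene covariate gave 0.00563 for *Ndufs3*, 0.0126 for *Uqcr10*, 0.0396 for *Uqcrq* and 0.20 for *Uqcr11*, and leaving out the 3 libraries gave 0.10 for *Uqcrq*, 0.0564 for *Uqcr10* and 0.31 for *Uqcr11*. With 1 library left out, values ran from -0.14 to 0.000959 for *Ndufs3*, -0.0413 to 0.0778 for *Sdhc*, -0.0393 to 0.0456 for *Uqcrc1*, -0.22 to 0.054 for *Uqcrq*, -0.29 to 0.0315 for *Uqcr10* and -0.17 to 0.23 for *Uqcr11*. No paired analysis was possible because the labels carry no replicate number that links mice across groups. Depth limits *Ndufa4l2*, with an estimated 6 to 101 reads per library; the lowest of any other member was 75.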
